A study of Homo sapiens with 6 samples.

Results

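Heat shock proteins and their co-chaperones were examined after knockdown of TIG1 in SUM149, an established line grown out of a human inflammatory breast cancer. The set holds 40 genes, named by family: small heat shock proteins, the HSP70 and HSP110 families, the mitochondrial chaperonin, cytosolic HSP90, J-domain proteins (also called HSP40), BAG proteins, HSP90 co-chaperones, the collagen chaperone SERPINH1 and the heat shock factors. Of these, 36 were paired with at least 1 probe set carrying their symbol alone, out of 19775 genes tested. HSPA1B, HSPA8, AHSA1 and HSF2 had no such probe set and were not analysed here. Each gene was read from the probe set with its highest mean over the 6 arrays.

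The siTIG1 group was 3 arrays of SUM149 cells transfected with an ON-TARGET Plus pool against TIG1, the gene now called RARRES1. The siControl group was 3 arrays of SUM149 cells given the siGENOME non-targeting pool, so the groups differed in product line as well as in target. All cells had oligofectamine and siRNA at 200 nmol/L, and were grown in Ham's F-12 medium with serum, insulin and hydrocortisone. The sources used here do not give the time from transfection to harvest. Nothing in the labels says whether replicates were separate cultures, so the spread behind each p-value may be technical.

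Chaperones bind unfolded or newly made proteins and keep them from aggregating. Small heat shock proteins hold clients without ATP. HSP70 binds and releases clients in an ATP cycle that J-domain proteins start and that BAG and HSP110 proteins end by exchanging the nucleotide, and HSP90, fed by co-chaperones, finishes the folding of kinases and steroid receptors. Heat shock factor 1 (HSF1) induces many of these genes under protein stress by binding heat shock elements, repeats of the pentamer with GAA at its core, in their promoters. Tumour cells often carry high levels of HSP90, HSP70 and HSPB1.

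TIG1 itself, on its probe set with the highest mean, had log2 signals of 12.69, 11.95 and 11.87 on the siTIG1 arrays, against 12.65, 12.61 and 13.74 on the siControl arrays. On that probe set the siTIG1 replicate 1 array lay within the range of the controls. The RARRES1 difference of -0.83 ± 0.36 (SE) did not pass (limma adjusted p = 0.25), nor did that of -0.46 ± 0.20 (SE) without siControl replicate 3 (limma adjusted p = 0.12). Both dimmer RARRES1 probe sets were also below 0, at -1.24 and -1.28, with every siTIG1 array below every control. On them siTIG1 replicate 1 read 11.72 and 10.72, against 11.88 and 10.92 on the lowest control, siControl replicate 2. Both passed as lower in the fit without siControl replicate 3 only, at -0.68 and -0.75 (limma adjusted p = 0.038 and 0.021 over all probe sets). The array of siControl replicate 3 stood apart: it correlated with the other controls at 0.985 and 0.985 across probe sets, against 0.998 between those. Differences without it are given where it moved them. Of 7 measured epithelial markers EPCAM averaged 14.34 and 14.39 and CDH1 13.52 and 13.48 in the siTIG1 and siControl groups, and 1 marker, KRT19, rose by 1.00 ± 0.15 (SE, limma adjusted p = 0.016). Without siControl replicate 3, where CDH1 lay 0.91 above the other controls, 4 of the 7 passed as higher, KRT19 at 0.84, CDH1 at 0.35, KRT5 at 0.29 and KRT8 at 0.22. None of the 5 leukocyte, 6 fibroblast and 5 endothelial markers passed (largest differences 0.36 for CD14, -0.08 for PDGFRB and 0.07 for CDH5). Their mean levels were 8.32 to 8.37 and 8.15 to 8.45 for leukocytes, 7.65 to 7.78 and 7.67 to 7.83 for fibroblasts, and 7.86 to 7.90 and 7.79 to 7.86 for endothelium on the siTIG1 and siControl arrays. Without siControl replicate 3 CD14 passed as higher, at 0.80. Of 4 luminal hormone receptor genes none passed with all arrays, with GATA3 at 0.54 (limma adjusted p = 0.058), but GATA3 passed as higher without siControl replicate 3, at 0.67 (limma adjusted p = 0.00022). The part of these markers in the results below was not tested.

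All differences are siTIG1 minus siControl on the log2 scale. Of the 36 measured genes 4 passed as higher in siTIG1 cells, HSPB1, DNAJB4, DNAJB6 and SERPINH1, and none passed as lower by limma at an adjusted p under 0.05. Among all genes tested 3.15% passed as higher and 4.17% as lower, 7.32% in either direction. At an unadjusted p under 0.05, 6 of the 36 were higher and 3 lower. The share of all genes at that threshold is not given here, so these counts have no comparison. The median difference was 0.10, with 28 of 36 above 0, beside 0.02 and 54.8% over all genes. In 8 genes every siTIG1 array lay above every siControl array (22.2%, beside 16.6% of all genes) and in 3 every one lay below (8.33%, beside 15.4%). Most differences were small, with 21 of the 36 under 0.2 in size. In RNA from whole cultures, fewer cells expressing a gene and less RNA per cell cannot be told apart.

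Without the siControl replicate 3 array 6 genes passed as higher (16.7%, beside 12.3% of all genes) and 4 as lower (11.1%, beside 14.9%), with a median of 0.05. In either direction 27.2% of all genes passed in that fit. Groups did not overlap in 12 genes as higher and 7 as lower, beside 28.4% and 24.4% of all genes. The 4 genes named above were among the 6, joined by BAG2 and DNAJB2. Those lower were HSPA9, HSPA14, DNAJA1 and BAG1. With that array left out 8 of the 36 genes changed sign, and 26 differed by less than 0.2.

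**Figure D1:**
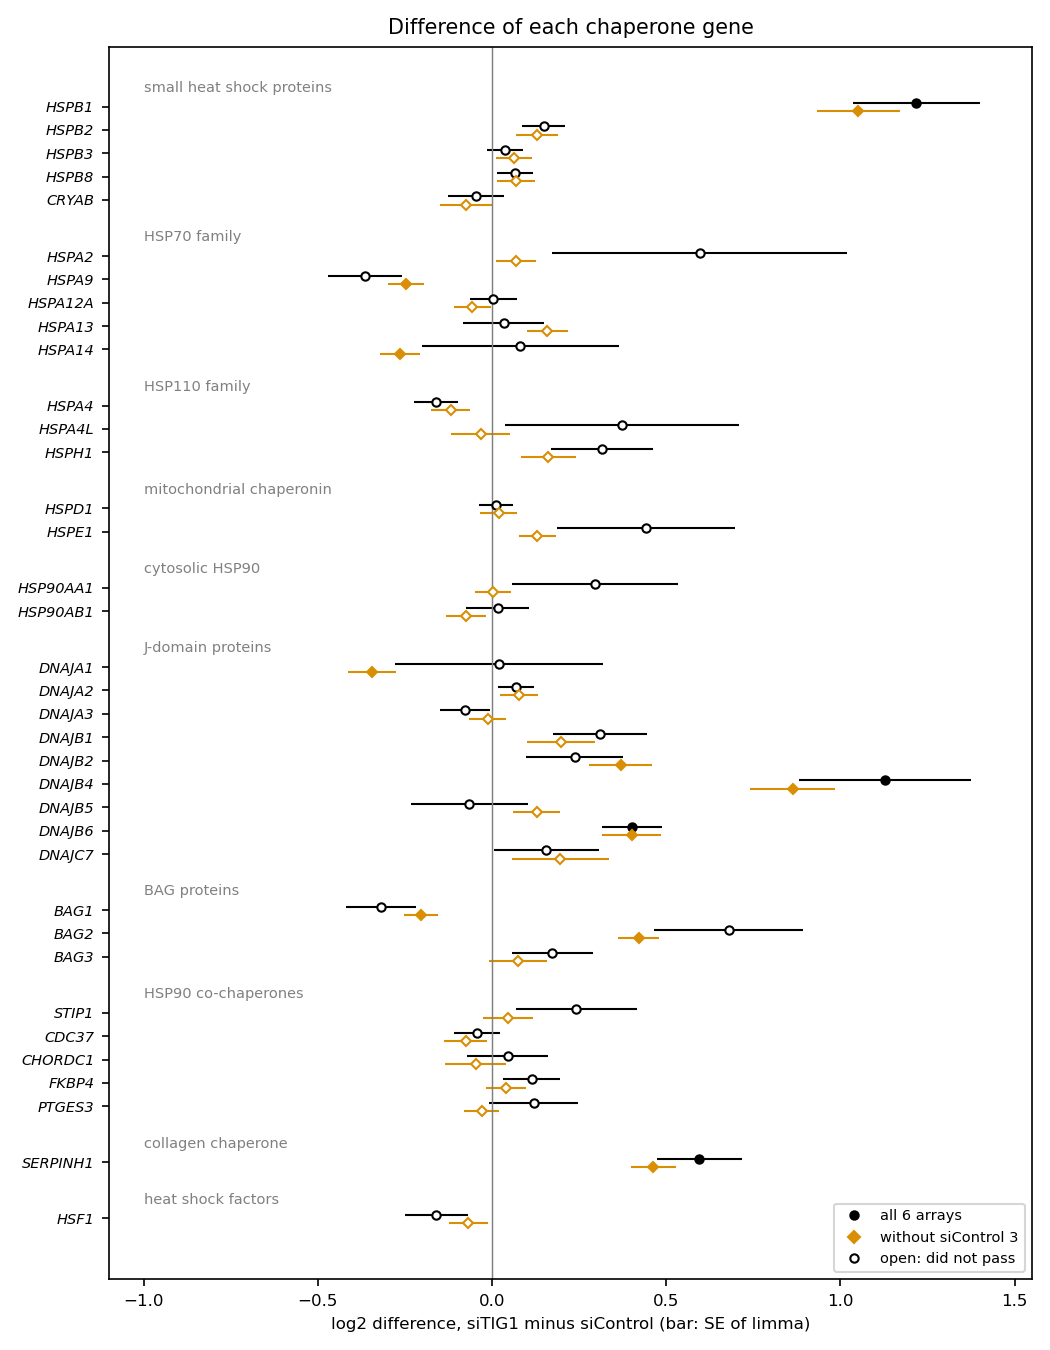
Log2 difference, siTIG1 minus siControl, for the 36 measured genes by family (x axis), with the standard error of limma as bars. Circles use all 6 arrays and diamonds leave out siControl replicate 3; filled marks passed at an adjusted p under 0.05. HSPB1, DNAJB4, DNAJB6 and SERPINH1 are filled in both fits, and HSPA2 has its circle at 0.60 and its diamond at 0.07.

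Among small heat shock proteins HSPB1, which encodes HSP27, a stress-induced chaperone of the cytosol that also binds actin, showed the largest difference of the whole set. It read 12.42, 12.85 and 12.79 on the siTIG1 arrays, against 11.73, 11.54 and 11.14 on the siControl arrays. The groups did not overlap, with siTIG1 replicate 1 the lowest of its group and siControl replicate 3 the lowest of all. The means were 12.69 ± 0.23 in siTIG1 cells and 11.47 ± 0.30 in siControl cells (SD, n = 3 each), 2.33-fold higher (log2 1.22 ± 0.18 SE, limma adjusted p = 0.015). Without siControl replicate 3 the difference was 1.05 ± 0.12 (SE, limma adjusted p = 0.00020). Leaving out siControl replicate 2, siTIG1 replicate 2 or siTIG1 replicate 3 ended the call (limma adjusted p = 0.058, 0.088 and 0.089), while the difference stayed between 1.05 and 1.35. A single probe set measured this gene, and the same holds for DNAJB6 and SERPINH1 below.

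The other small heat shock proteins did not pass and lay near the array medians over all probe sets, which were 7.87 to 7.90. HSPB2 and HSPB3, known from muscle, HSPB8, the partner of BAG3 in the selective autophagy of misfolded proteins, and CRYAB, the alpha-B crystallin of lens and muscle, averaged 7.70 to 8.21 in siTIG1 cells and 7.66 to 8.14 in siControl cells. These 4 and 2 others of the set, HSPA12A and DNAJB5, lay below the median gene level of 8.74. The table carries no detection calls, so these signals are not shown to lie above background. Their differences ran from -0.05 for CRYAB to 0.15 for HSPB2 (limma adjusted p = 0.80 and 0.23).

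J-domain proteins held 2 of the 4 genes that rose. DNAJB4, a cytosolic HSP40 that is related to DNAJB1 and is heat-inducible, read 9.64, 10.08 and 10.11 on the siTIG1 arrays, against 9.11, 9.05 and 8.29 on the siControl arrays. Every siTIG1 value was above every control value, and siControl replicate 3 was 0.79 below the mean of the other controls. The means were 9.95 ± 0.26 in siTIG1 cells and 8.82 ± 0.46 in siControl cells (SD, n = 3 each), a 2.18-fold rise (log2 1.13 ± 0.25 SE, limma adjusted p = 0.048). The other DNAJB4 probe set had the same sign, at 0.78. When all probe sets were tested, neither passed with all arrays (limma adjusted p = 0.0505 for the brighter and 0.062). Both passed in that test without siControl replicate 3 (limma adjusted p = 0.0013 and 0.010). Over all genes, the difference of the brighter without that array was 0.86 ± 0.12 (SE, limma adjusted p = 0.00076). Leaving out any other array ended the call (limma adjusted p of 0.075 to 0.19), as did averaging the probe sets (0.053).

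DNAJB6, which keeps polyglutamine proteins from aggregating, read 10.69, 10.88 and 11.01 on the siTIG1 arrays, against 10.48, 10.44 and 10.46 on the siControl arrays. The groups did not overlap, and siControl replicate 3 lay between the other controls. The difference was 0.40 ± 0.09 (SE) with all arrays and 0.40 ± 0.08 (SE) without that array. The rise was 1.32-fold (limma adjusted p = 0.045 and 0.0065). Leaving out siTIG1 replicate 1 kept the call (0.041) and leaving out any of the other 4 arrays ended it (limma adjusted p of 0.11 to 0.18), as did median centring (0.053) and a trended robust variance (0.066).

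DNAJB1, the main stress-induced HSP40 of the cytosol, differed between its 2 probe sets in size. The brighter did not pass. Its signals were 12.35, 12.69 and 12.69 on the siTIG1 arrays, against 12.39, 12.37 and 12.04 on the siControl arrays. The siTIG1 replicate 1 array was below siControl replicates 1 and 2, so the groups overlapped, and the difference was 0.31 ± 0.13 (SE, limma adjusted p = 0.25), or 0.20 ± 0.10 (SE, limma adjusted p = 0.17) without siControl replicate 3. The dimmer DNAJB1 probe set read 10.84, 11.07 and 11.11 on the siTIG1 arrays, against 10.54, 10.54 and 10.15 on the siControl arrays, with no overlap. Its difference was 0.59 ± 0.13 (SE), with a limma adjusted p of 0.051 when all probe sets were tested, and it passed as higher without siControl replicate 3, at 0.47 (limma adjusted p = 0.0035 over all probe sets). DNAJB2, a J-domain protein best known from neurons, read 9.96, 10.25 and 10.21 on the siTIG1 arrays, against 9.85, 9.69 and 10.17 on the siControl arrays. With all arrays the difference was 0.24 ± 0.14 (SE, limma adjusted p = 0.39). It passed without siControl replicate 3, which was the highest control, at 0.37 ± 0.09 (SE, limma adjusted p = 0.013).

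DNAJA1, a class A J-domain protein of the cytosol, had opposite signs on its 2 probe sets once siControl replicate 3 was left out. The brighter read 12.86, 12.98 and 13.09 on the siTIG1 arrays, against 13.31, 13.34 and 12.23 on the siControl arrays. Its difference was 0.02 ± 0.30 (SE, limma adjusted p = 0.98) with all arrays and -0.34 ± 0.07 (SE, limma adjusted p = 0.0053) without siControl replicate 3. The other probe set was at 0.64 with all arrays (limma adjusted p = 0.28 over all probe sets) and at 0.28 without that array (limma adjusted p = 0.014 over all probe sets). DNAJA1 is therefore not assigned a direction. DNAJA2, a cytosolic relative, DNAJA3, its mitochondrial counterpart, DNAJB5 and DNAJC7, a co-chaperone with TPR repeats, did not pass in either fit. Their differences were -0.08 to 0.16 with all arrays and -0.01 to 0.20 without siControl replicate 3. Both dimmer DNAJC7 probe sets had the opposite sign, at -0.13 and -0.16, and the dimmer DNAJB5 probe set was at 0.01.

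SERPINH1, which encodes HSP47, the chaperone of procollagen in the endoplasmic reticulum and a classical heat-induced gene, read 12.22, 12.39 and 12.37 on the siTIG1 arrays, against 11.88, 11.84 and 11.47 on the siControl arrays. The groups did not overlap, and siControl replicate 3 was again the lowest array. The means were 12.33 ± 0.09 in siTIG1 cells and 11.73 ± 0.23 in siControl cells (SD, n = 3 each), 1.51-fold higher (log2 0.60 ± 0.12 SE, limma adjusted p = 0.039). Without siControl replicate 3 the difference was 0.46 ± 0.06 (SE, limma adjusted p = 0.00060), and leaving out any other array ended the call (limma adjusted p of 0.066 to 0.17).

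**Figure D2:**
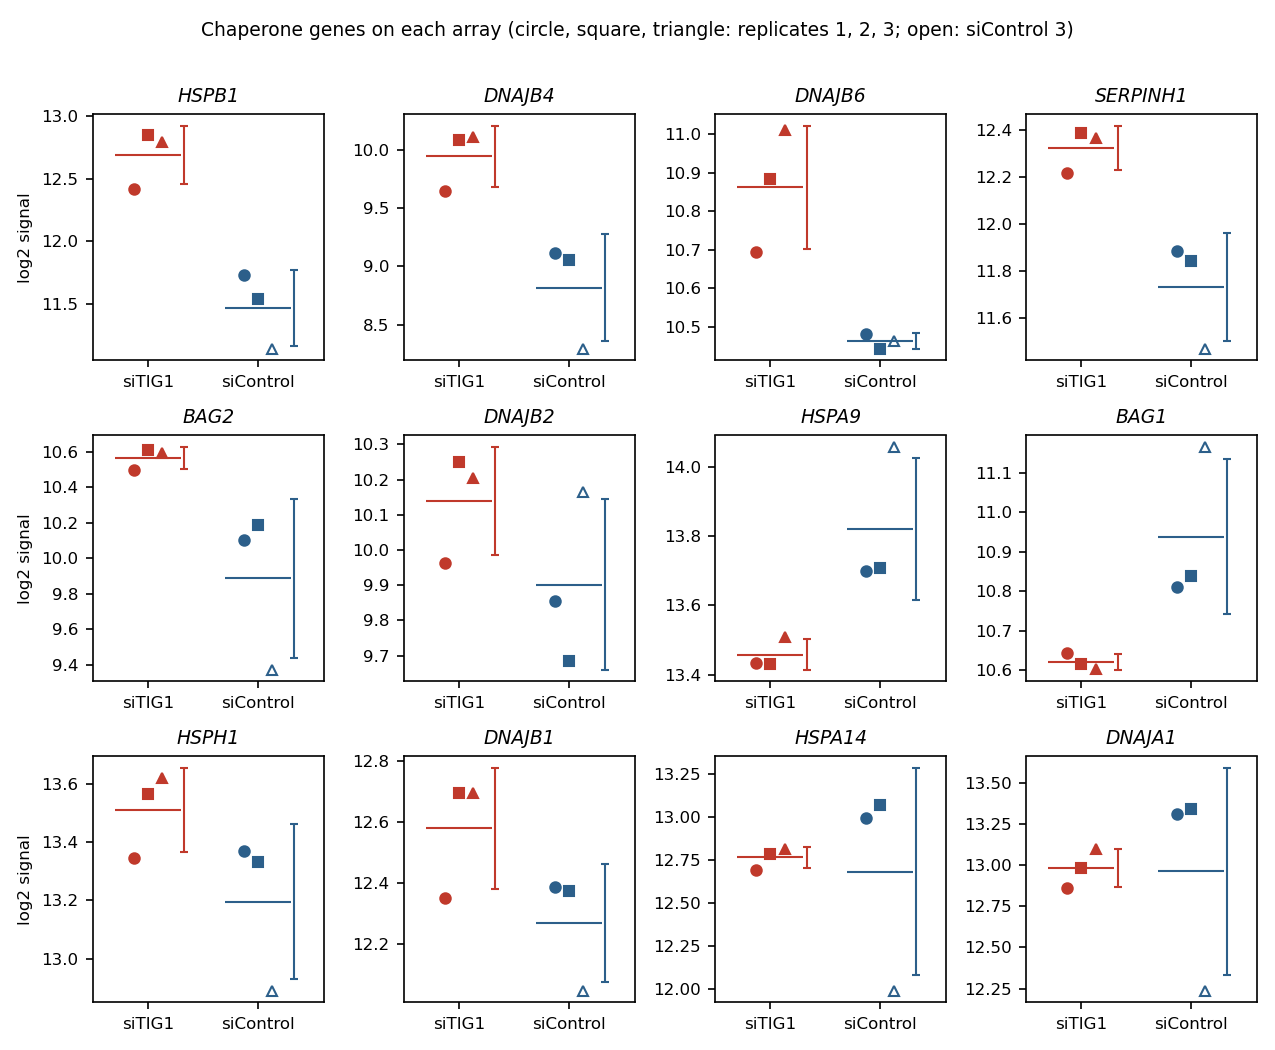
Log2 signal (y axis, own scale per gene) of 12 genes on each array, siTIG1 left of siControl. Circles, squares and triangles are replicates 1, 2 and 3, the open triangle is siControl replicate 3, lines are means and bars the SD over 3 arrays. In HSPB1, DNAJB4, DNAJB6 and SERPINH1 the groups do not overlap, whereas in HSPA14 and DNAJA1 the open triangle lies below all other arrays and the other controls above all siTIG1 arrays.

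The upstream sequences of the 4 genes that rose are shown because heat shock elements lie in promoters. They come from RefSeq (GRCh38.p14). Capitals mark matches to the short parts GAANNTTC and TTCNNGAA, each its own reverse complement, or to the full heat shock element. The full element is GAANNTTC followed by NNGAA or, on the other strand, TTCNNGAA followed by NNTTC, so it holds both short parts. Each stretch ends at the base before a listed gene start. The HSPB1 stretch is chr7:76302423-76302672 (plus strand), DNAJB4 is chr1:78004819-78004938 (plus strand, the second listed start), DNAJB6 is chr7:157336754-157337003 (plus strand) and SERPINH1 is chr11:75562133-75562252 (plus strand, the first listed start).
HSPB1: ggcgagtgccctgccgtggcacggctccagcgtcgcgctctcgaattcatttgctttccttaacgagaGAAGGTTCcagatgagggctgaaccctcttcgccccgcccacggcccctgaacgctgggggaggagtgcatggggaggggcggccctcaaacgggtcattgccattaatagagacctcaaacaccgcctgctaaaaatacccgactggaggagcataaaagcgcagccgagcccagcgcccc
DNAJB4: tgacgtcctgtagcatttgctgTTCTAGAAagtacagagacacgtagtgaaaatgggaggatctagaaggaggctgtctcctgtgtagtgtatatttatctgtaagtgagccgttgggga
DNAJB6: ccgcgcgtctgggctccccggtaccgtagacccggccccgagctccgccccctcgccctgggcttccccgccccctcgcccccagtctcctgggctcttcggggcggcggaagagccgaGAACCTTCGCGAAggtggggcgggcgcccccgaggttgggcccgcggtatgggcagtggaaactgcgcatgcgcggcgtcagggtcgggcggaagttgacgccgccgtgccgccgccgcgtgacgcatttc
SERPINH1: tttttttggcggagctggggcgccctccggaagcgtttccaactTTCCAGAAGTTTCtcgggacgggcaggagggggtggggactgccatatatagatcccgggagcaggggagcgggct

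The full element was found in DNAJB6 and SERPINH1, and a short part only in HSPB1 and DNAJB4. The starts and lengths shown are those that held a match. No match lay in the window of the first DNAJB4 start or of the second SERPINH1 start. HSPB1 and DNAJB6 are shown over 250 bases and the DNAJB4 and SERPINH1 stretches over 120. The last 120 bases of HSPB1 held no match, and those of DNAJB6 cut through its element. Another 3 genes of the set that did not pass are shown for comparison, since they hold the full element or several short parts as well. These are the stress-induced HSP90AA1, chr14:102087045-102087164 (minus strand, second listed start), the HSP90 co-chaperone CHORDC1, chr11:90223050-90223169 (minus strand), and DNAJB1, chr19:14518398-14518517 (minus strand, second listed start).
HSP90AA1: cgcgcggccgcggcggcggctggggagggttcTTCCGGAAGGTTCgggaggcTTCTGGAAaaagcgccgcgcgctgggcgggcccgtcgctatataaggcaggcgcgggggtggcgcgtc
CHORDC1: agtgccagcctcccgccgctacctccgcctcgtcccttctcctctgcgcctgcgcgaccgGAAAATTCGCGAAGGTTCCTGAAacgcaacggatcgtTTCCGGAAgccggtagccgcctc
DNAJB1: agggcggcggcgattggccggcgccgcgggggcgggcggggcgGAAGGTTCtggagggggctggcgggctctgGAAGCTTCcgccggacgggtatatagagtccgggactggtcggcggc

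RefSeq promoter windows, from 250 bases before to 50 after a gene start, were listed for 31 of the 36 genes, 44 windows in all. HSPB2, HSPA14, CRYAB, FKBP4 and HSF1 were not matched. The full element, searched on both strands, lay in a window of 7 of the 31 genes (22.6%), against 89 of 15384 genes tested on the array (0.579%). Counted per window it was 7 of 44, against 94 of 21490. A short part lay in 16 of the 31 (51.6%), against 2309 of the 15384. By outcome the full element was in 2 of the 4 genes that rose and in 5 of the 27 that did not pass, which were CHORDC1, DNAJA1, HSP90AA1, HSP90AB1 and HSPD1. A match of letters is a description and not evidence of binding.

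No HSP70 gene passed with all arrays, and HSPA9 and HSPA14 passed as lower without siControl replicate 3. HSPA9, the mitochondrial HSP70 known as mortalin, read 13.43, 13.43 and 13.51 on the siTIG1 arrays, against 13.70, 13.71 and 14.06 on the siControl arrays. All siTIG1 values lay below all controls, and siControl replicate 3 was the highest. The difference was -0.36 ± 0.11 (SE, limma adjusted p = 0.11), and -0.25 ± 0.05 (SE, limma adjusted p = 0.0067) without siControl replicate 3. All 4 HSPA9 probe sets were lower in siTIG1 cells, at -0.50 to -0.09.

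HSPA14, a ribosome-associated HSP70 that works with the J-domain protein DNAJC2, read 12.69, 12.79 and 12.81 on the siTIG1 arrays, against 12.99, 13.07 and 11.99 on the siControl arrays. The last control turned the sign: the difference was 0.08 ± 0.28 (SE, limma adjusted p = 0.90) with it and -0.27 ± 0.06 (SE, limma adjusted p = 0.0078) without it. Both other HSPA14 probe sets were lower with all arrays, at -0.25 and -0.22. HSPA2, the HSP70 of spermatogenesis, read 10.38, 10.48 and 10.39 on the siTIG1 arrays, against 10.30, 10.39 and 8.77 on the siControl arrays. Its difference of 0.60 ± 0.42 (SE, limma adjusted p = 0.48) rested on siControl replicate 3 and was 0.07 ± 0.06 (SE) without it. HSPA13, an HSP70 of microsomes, and the distant relative HSPA12A were at 0.03 and 0.00 with all arrays (limma adjusted p = 0.90 and 0.98) and at 0.16 and -0.06 without siControl replicate 3. The dimmer HSPA13 probe set had the opposite sign with all arrays, at -0.38. It read 10.11, 10.12 and 11.13 on the siControl arrays. Without siControl replicate 3 its difference was -0.05 (limma adjusted p = 0.64 over all probe sets).

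Of the HSP110 proteins, which release the nucleotide from HSP70, none passed in either fit. HSPH1, the heat-inducible one, read 13.35, 13.57 and 13.62 on the siTIG1 arrays, against 13.37, 13.33 and 12.89 on the siControl arrays. Its siTIG1 replicate 1 value fell between the controls, and the difference was 0.32 ± 0.15 (SE, limma adjusted p = 0.28), or 0.16 ± 0.08 (SE) without siControl replicate 3. Of 3 HSPH1 probe sets the dimmest had the opposite sign, at -0.09, and without that array it passed as lower (-0.52, limma adjusted p = 0.00028 over all probe sets). HSPA4 was at -0.16 ± 0.06 (SE, limma adjusted p = 0.20) with no overlap between groups, and HSPA4L at 0.37 ± 0.34 (SE, limma adjusted p = 0.59), where siControl replicate 3 was the lowest array. Without it they were at -0.12 and -0.03, and the dimmer HSPA4L probe set passed as lower, at -0.43 (limma, p adjusted over all probe sets = 0.017).

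The chaperonin of the mitochondrial matrix is built of HSPD1 (HSP60) and its lid HSPE1 (HSP10), whose genes lie head to head. HSPD1 read 15.03, 15.09 and 15.11 on the siTIG1 arrays, against 15.03, 15.08 and 15.08 on the siControl arrays, close to the highest value of any probe set on the arrays (15.59). These values overlapped. HSPE1 read 12.31, 12.36 and 12.27 on the siTIG1 arrays, against 12.21, 12.17 and 11.25 on the siControl arrays. Its groups did not overlap, but the difference of 0.44 ± 0.26 (SE, limma adjusted p = 0.38) was 0.13 ± 0.05 (SE, limma adjusted p = 0.11) without siControl replicate 3. Of 5 HSPD1 probe sets the dimmest read 5.72, 6.14 and 5.68 on the siTIG1 arrays, against 6.88, 7.06 and 6.76 on the siControl arrays. It passed as lower (-1.05, limma adjusted p = 0.013 over all probe sets), opposite in sign to the brightest. Its values lay below the array medians and are not shown to lie above background. The remaining HSPD1 probe sets were at 0.12, 0.24 and -0.14 and did not pass with all arrays. That at -0.14 passed as lower without siControl replicate 3, at -0.23 (limma adjusted p = 0.033 over all probe sets).

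Cytosolic HSP90 did not pass in either fit. HSP90AA1, the stress-induced form, read 14.70, 14.78 and 14.77 on the siTIG1 arrays, against 14.74, 14.75 and 13.87 on the siControl arrays. Apart from siControl replicate 3, which was the lowest, the groups overlapped, and the difference of 0.30 ± 0.24 (SE, limma adjusted p = 0.54) was 0.00 ± 0.05 (SE) without it. HSP90AB1, the constitutive form, read 14.82, 14.89 and 14.96 on the siTIG1 arrays, against 14.97, 14.97 and 14.69 on the siControl arrays, a difference of 0.02 ± 0.09 (SE, limma adjusted p = 0.94), or -0.08 ± 0.06 (SE, limma adjusted p = 0.38) without siControl replicate 3.

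No HSP90 co-chaperone passed in either fit. STIP1, which hands clients to HSP90 from HSP70, was at 0.24 ± 0.17 (SE, limma adjusted p = 0.49), CDC37, which brings kinases to HSP90, at -0.04 ± 0.07 (SE) and CHORDC1 at 0.04 ± 0.12 (SE). FKBP4, an immunophilin of steroid receptor complexes, was at 0.11 ± 0.08 (SE) and PTGES3, the co-chaperone p23, at 0.12 ± 0.13 (SE). On siControl replicate 3 all 5 read below both other controls, and without it their differences lay between -0.08 and 0.04. The 2 dimmest FKBP4 probe sets passed as lower in that fit, at -0.34 and -0.41 (limma adjusted p = 0.0041 and 0.015 over all probe sets). They read 7.29 to 7.91 and 7.22 to 7.96, near or below the array medians, and are not shown to lie above background. HSF1, the stress-response factor itself, read 9.43, 9.33 and 9.32 on the siTIG1 arrays, against 9.41, 9.45 and 9.71 on the siControl arrays. These overlapped, at -0.16 ± 0.09 (SE, limma adjusted p = 0.37), or -0.07 ± 0.06 (SE, limma adjusted p = 0.42) without siControl replicate 3.

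None of the 3 BAG proteins, which release clients from HSP70, passed with all arrays. BAG1, which links HSP70 to the proteasome, read 10.64, 10.61 and 10.60 on the siTIG1 arrays, against 10.81, 10.84 and 11.17 on the siControl arrays. All siTIG1 values were below all controls, the difference was -0.32 ± 0.10 (SE, limma adjusted p = 0.13), and it passed without siControl replicate 3 at -0.20 ± 0.05 (SE, limma adjusted p = 0.013). Its 3 probe sets lay between -0.32 and -0.28. BAG2, an inhibitor of the ubiquitin ligase CHIP, read 10.50, 10.61 and 10.59 on the siTIG1 arrays, against 10.10, 10.19 and 9.37 on the siControl arrays. No values overlapped, and the difference was 0.68 ± 0.21 (SE, limma adjusted p = 0.13), passing without siControl replicate 3 at 0.42 ± 0.06 (SE, limma adjusted p = 0.00063). Its 2 dimmer probe sets had the opposite sign, at -0.08 and -0.18, and 1 of them passed as lower without that array (-0.25, limma adjusted p = 0.027 over all probe sets). These dimmer sets read 7.65 to 7.95 and 7.12 to 7.51, near or below the array medians. They are not shown to lie above background and cannot settle the sign. The rise rested on the brightest set, which did not pass with all arrays, so BAG2 is not assigned a direction either. BAG3, the stress-induced BAG protein, read 11.07, 11.38 and 11.28 on the siTIG1 arrays, against 11.17, 11.17 and 10.87 on the siControl arrays, and did not pass (0.17 ± 0.12 SE, limma adjusted p = 0.46), nor without siControl replicate 3 (0.07 ± 0.08 SE).

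**Figure D3:**
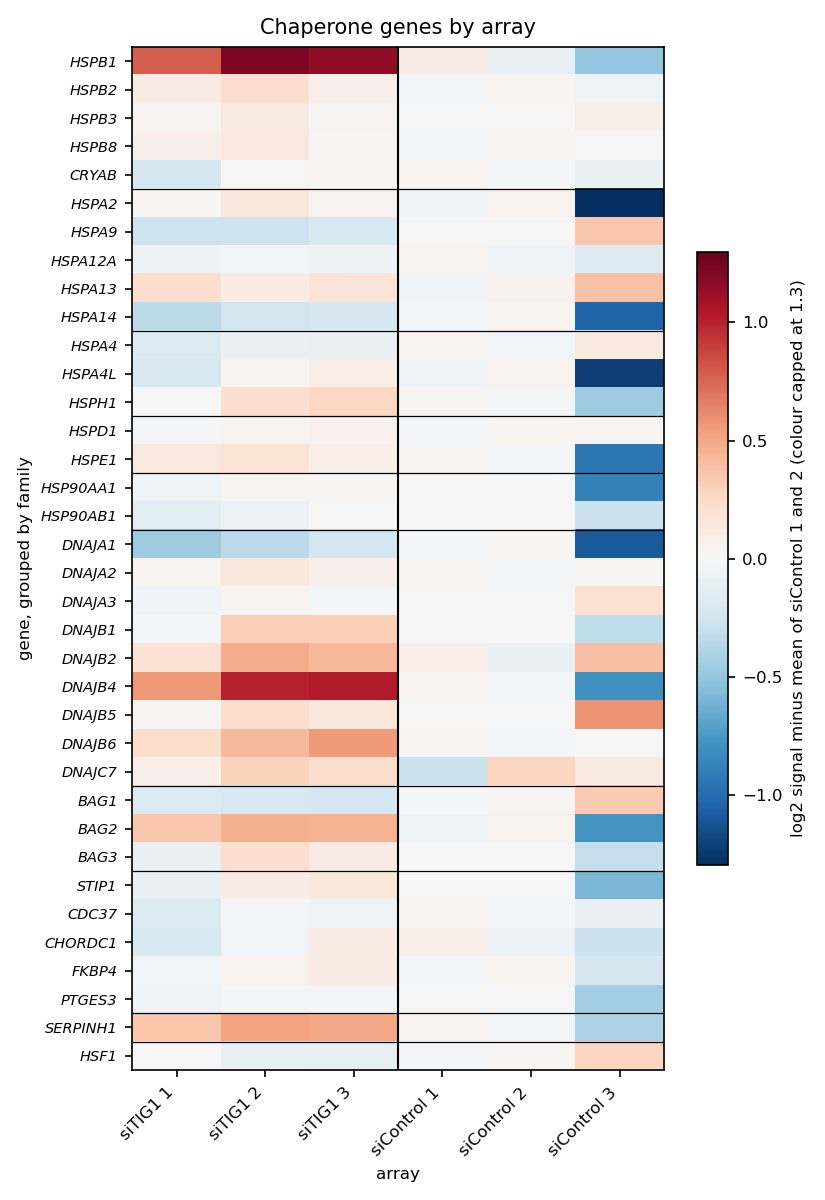
Log2 signal of the 36 genes (rows, by family, families parted by lines) on each array (columns), minus the mean of siControl replicates 1 and 2. The colour is capped at 1.3. HSPB1, DNAJB4, DNAJB6 and SERPINH1 are above 0 on all siTIG1 arrays, siTIG1 replicate 1 is paler than the other siTIG1 arrays in most of these rows, and siControl replicate 3 is below 0 for HSPA2, HSPA4L, DNAJA1 and HSPA14.

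Single arrays moved with these results. On siControl replicate 3 9 of the 36 genes lay more than 0.5 below the mean of the other controls (25.0%, beside 7.13% of all genes), with a median of -0.20, beside 0.02 over all genes. On the same array all 29 measured S phase genes lay below both other controls, with a median of -1.35. With all arrays none of the S phase genes passed (CCNE2 had the largest difference, 0.74), and without that array 24 fell and none rose. As a measure of RNA quality, the 3' control probe set of ACTB exceeded its 5' control, a gap that widens with degraded RNA, by 2.14, 2.28 and 2.34 on the siTIG1 arrays, against 2.73, 2.62 and 3.21 on the siControl arrays. The gap was therefore smaller on every siTIG1 array. For GAPDH it was 0.46 to 0.47 on the siTIG1 arrays, against 0.48, 0.46 and 0.57 on the siControl arrays. The part of the S phase genes and of RNA quality in the results was not tested.

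Within the siTIG1 group replicate 1 lay below both other arrays for 27 of the 36 genes (75.0%, beside 37.1% of all genes), and for 9 of 9 J-domain proteins. HSPB1, DNAJB4, DNAJB6 and SERPINH1 were among them, at -0.40, -0.45, -0.25 and -0.16 relative to the mean of the other siTIG1 arrays. Its TIG1 signal was 0.77 above theirs. Without this array HSPB1 and DNAJB6 kept their calls and 2 genes passed in all, and its part in the results was not tested.

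Beside the 7.32% of all genes that passed in either direction, 3 of 31 other J-domain proteins, 1 of 22 other co-chaperones, 1 of 12 TRiC and prefoldin subunits and 2 of 9 mitochondrial genes passed. Of the 31 other J-domain proteins DNAJA4, a heat-inducible one, rose by 0.56 ± 0.12 (SE, limma adjusted p = 0.049), whereas DNAJC10, a reductase of the endoplasmic reticulum, fell by 0.38 and DNAJC5, the synaptic vesicle protein CSP-alpha, fell by 0.32 on the log2 scale (limma adjusted p = 0.018 and 0.0499). Their list median was -0.03. Leaving out siControl replicate 3 gave 10 higher and 7 lower among them, beside 12.3% and 14.9% of all genes in that fit. Of the 22 other co-chaperones SUGT1, an HSP90 partner, rose by 0.49 ± 0.07 (SE, limma adjusted p = 0.015), with a list median of 0.01, and 5 were higher and 3 lower without siControl replicate 3. Of the 12 TRiC and prefoldin subunits PFDN5 rose by 0.28 ± 0.05 (SE, limma adjusted p = 0.025), with a median of 0.06, and 1 was higher and 1 lower without it. Of the 9 mitochondrial chaperone and protease genes TRAP1, the mitochondrial HSP90, fell by 0.46 and GRPEL2, a nucleotide exchange factor of HSPA9, fell by 0.48 on the log2 scale (limma adjusted p = 0.037 for both), with a list median of -0.31. On siControl replicate 3 these 9 genes had a median 0.32 above the other controls. Leaving it out put the list median at -0.12, with 3 lower.

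None of 13 chaperones of the endoplasmic reticulum passed (DNAJB11 at -0.37, limma adjusted p = 0.062; list median -0.12), and 4 were lower and none higher without siControl replicate 3, beside the 14.9% and 12.3% of all genes. None of 7 other HSP70 and small heat shock genes passed either (HSPA12B at -0.07). In a list of 11 other heat shock factors and heat-induced genes, which shares members with the lists above, DNAJA4 alone passed, and the median was 0.04. Without siControl replicate 3, 3 of these rose and 1 fell.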

How the data were processed

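Expression was measured on Affymetrix HG-U133 Plus arrays in 6 samples of SUM149 cells, 3 per group by the sample titles. The authors deposited 1 log2 value per probe set and array. Tools named per the submitters' processing notes were MAS5 and RMA, whose roles and versions are not given in the sources used here. The range of 4.28 to 15.59 was read as log2. Array medians lay between 7.87 and 7.90, so values were used as deposited. A shift of most genes one way would not be visible, and no detection call is given. Depth has no meaning for arrays, and the number of arrays limits the precision.

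Of 54675 probe sets 62 were controls, 41091 had 1 symbol, 1801 several and 11721 none. Current symbols came, by gene number, from RefSeq (GRCh38.p14), which held 19735 of 19775 genes. Each gene took its probe set with the highest mean. The siTIG1 and siControl arrays were compared 2-sided, with no block, in limma 3.58.1 under R 4.3.3 (eBayes on lmFit) with Benjamini-Hochberg adjustment over all genes and a threshold of 0.05. The test was checked on simulated data in which no array stood apart, so that check does not cover the part of siControl replicate 3. Differences carry the standard error of that fit. The genes, families and other lists (other chaperones, S phase genes and cell type markers) were chosen with earlier results of these data known. Named genes were all measured genes of the set, RARRES1 and, from each other list, up to 3 genes past the threshold or otherwise the largest difference. Lists are described by counts and medians, with no set test. The replicate numbers were not taken as pairs: deviations of same-numbered arrays from their group means correlated at -0.08, 0.02 and -0.04. The fit was repeated with each array left out, array weights, the replicate block, a trended robust variance, other probe set rules, no dim genes, and median or quantile scaling.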

Additional observations from a re-analysis of the deposited data

How the results depend on the processing

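With all arrays 4 genes passed as higher and none as lower. The first count was 3 or 4 with a trended robust variance, a filter on dim genes, other probe set rules, median centring or quantile normalization, with a median between 0.08 and 0.14. With array weights, which gave siControl replicate 3 a weight of 0.102, 6 passed as higher and 2 as lower, and over all genes 2403 rose and 2731 fell, against 623 and 825. Averaging probe sets added 1 lower gene, HSPA4 (-0.28, limma adjusted p = 0.046). The replicate block left 0 higher and 0 lower genes of the set and 104 higher and 134 lower genes in all. Its limma adjusted p was 0.076 for HSPB1, 0.13 for DNAJB4, 0.12 for DNAJB6 and 0.11 for SERPINH1. Leaving out 1 array at a time gave 0 to 6 higher and 0 to 4 lower genes of the set, a median of 0.05 to 0.17, 102 to 2423 higher and 120 to 2952 lower genes in all, and a TIG1 difference of -1.09 to -0.46.

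Genes that did not pass with all arrays changed sign as follows. Quantile normalization put HSPA12A at -0.015, HSPD1 at -0.0086 and CDC37 at 0.0028. Median centring put HSPA12A at -0.013, HSPD1 at -0.0067 and HSP90AB1 at -0.0010. Averaging probe sets put HSPA13 at -0.18, HSPA14 at -0.13, HSPD1 at -0.16 and DNAJC7 at -0.043. Array weights put HSPA12A at -0.052, HSPA14 at -0.22, HSP90AB1 at -0.057, DNAJA1 at -0.29, DNAJB5 at 0.14, CHORDC1 at -0.023 and PTGES3 at -0.012. With 1 array left out the ranges were -0.055 to 0.16 for HSPA13, -0.0061 to 0.032 for HSPD1, -0.0065 to 0.28 for DNAJC7, -0.057 to 0.054 for HSPA12A, -0.27 to 0.27 for HSPA14, -0.033 to 0.60 for HSPA4L, -0.076 to 0.062 for HSP90AB1, -0.34 to 0.21 for DNAJA1, -0.16 to 0.13 for DNAJB5, -0.047 to 0.13 for CHORDC1, -0.030 to 0.20 for PTGES3, -0.088 to 0.033 for CRYAB and -0.076 to 0.0067 for CDC37. The cause was not tested.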
